A study of Homo sapiens with 18 samples.

Results

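The origin firing factors are the proteins that turn a licensed replication origin into a working fork, and 10 of their genes are followed here: GINS1, GINS2, GINS3, GINS4, CDC45, CDC7, DBF4, TOPBP1, RECQL4 and MCM10. They were chosen by name, and all 10 are among the 23399 genes of the expression table. Their mRNAs were measured by RNA-seq in 18 libraries from U2OS-MycER, a human osteosarcoma line that carries Myc fused to the hormone-binding part of the estrogen receptor (MycER), introduced with a retrovirus. MycER stays inactive until the cells receive the tamoxifen metabolite OHT, and the endogenous MYC gene is still present in all groups. Cells were transfected with a pool of siRNAs against RAD21, a cohesin subunit (siRAD21), or with siRNA against Renilla luciferase (siCtrl), and at the same time received 400 nM OHT or ethanol. RNA was taken after 24 or 48 h, which makes 8 groups: siCtrl, siCtrl OHT, siRAD21 and siRAD21 OHT at each time. The siCtrl and siCtrl OHT groups at 48 h have 3 libraries each and the others have 2. The comparisons ask how the mRNAs of the firing factors respond when cohesin is depleted, when Myc is activated, and when both are done together.

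Origins are licensed in G1, when the MCM helicase is loaded onto DNA in an inactive form. At the start of S phase the Dbf4-dependent kinase, made of the catalytic subunit CDC7 and its activator DBF4, phosphorylates MCM. Together with the cyclin-dependent kinases it allows CDC45 and the GINS complex to join MCM, which gives the active CMG helicase. GINS is a ring-like assembly of the subunits GINS1, GINS2, GINS3 and GINS4 (also named PSF1, PSF2, PSF3 and SLD5). TOPBP1 and RECQL4 help to bring CDC45 and GINS to the origin, TOPBP1 also activates the ATR checkpoint kinase, and MCM10 is needed to set the assembled helicase in motion. Genes of this kind are classical targets of the E2F factors, whose activity peaks as cells enter S phase.

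The promoters of the firing factors are shown first, and whether they bear on the measurements that follow was not tested. RefSeq promoters (GRCh38.p14, 250 bases before to 50 after the transcription start) were found for 8 of the 10 genes, with 2 starts for CDC7 and 3 for CDC45, and none was used for GINS4 and RECQL4. Positions are counted from the start, with -1 for the last base before it and 1 for the first base after it. The E2F words TTTCCCGC, TTTCGCGC, TTTGCCGC and TTTGGCGC were searched on both strands, and 5 of the 8 genes held at least 1 of them, compared with 3.31% of all 35116 promoters and 3.99% of the 27305 genes that have one. In GINS2 the word begins at -31, in GINS3 at -5, in TOPBP1 at -7, in GINS1 at 6, past the start, and the second CDC7 start has a word at -68 and another at -34. The stretches from -120 to the start, or to the end of a word that crosses it, follow with the E2F words in capitals (on the minus strand the word reads as its reverse complement). Each stretch matched GRCh37, the build of hg19, at 1 place: GINS2 at chr16:85722561-85722680 on the minus strand, GINS3 at chr16:58426255-58426377 on the plus strand, CDC7 at chr1:91966549-91966668 on the plus strand and TOPBP1 at chr3:133380785-133380905 on the minus strand.
GINS2: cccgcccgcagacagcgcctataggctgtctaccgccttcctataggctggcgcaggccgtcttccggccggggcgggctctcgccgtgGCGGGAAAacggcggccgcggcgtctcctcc
GINS3: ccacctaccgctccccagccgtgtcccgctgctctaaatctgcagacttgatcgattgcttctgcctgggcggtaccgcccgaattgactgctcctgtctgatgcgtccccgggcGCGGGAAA
CDC7, second start: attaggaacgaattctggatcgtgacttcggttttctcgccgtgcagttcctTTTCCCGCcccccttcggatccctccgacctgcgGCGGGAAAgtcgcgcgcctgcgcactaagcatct
TOPBP1: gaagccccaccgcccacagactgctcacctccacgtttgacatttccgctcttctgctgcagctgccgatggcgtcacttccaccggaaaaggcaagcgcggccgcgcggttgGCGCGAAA

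The CDC45 and MCM10 promoters held none of these E2F words, but they held repeated CCAAT boxes, the word bound by NF-Y, and their stretches are shown with CCAAT or its reverse complement ATTGG in capitals. They lie at chr22:19467323-19467442 and chr10:13203438-13203557 on the plus strand of GRCh37. The first CDC45 start had 4 CCAAT boxes, at -112, -102, -64 and -44, and MCM10 had 2, at -118 and -105.
CDC45, first start: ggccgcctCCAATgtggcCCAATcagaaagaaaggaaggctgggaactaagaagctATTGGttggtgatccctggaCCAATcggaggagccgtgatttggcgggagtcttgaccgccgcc
MCM10: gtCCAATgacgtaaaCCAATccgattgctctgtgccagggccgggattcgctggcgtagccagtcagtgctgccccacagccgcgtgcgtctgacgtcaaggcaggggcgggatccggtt

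CCAAT was found in 4 of the 8 genes (GINS1, GINS2, CDC45 and MCM10), while 34.6% of all promoters and 39.7% of genes hold it. The E-box CACGTG, a word bound by Myc and its partner Max among others, was in 0 of the 8 genes. It was in 7.26% of all promoters and 8.77% of genes. The cell cycle homology word TTTGAA was in 1 of the 8 genes, DBF4, where it crosses the start, and in 15.2% of all promoters and 18.2% of genes. These matches describe letters in these windows and do not show that a factor binds there.

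**Figure D1:**
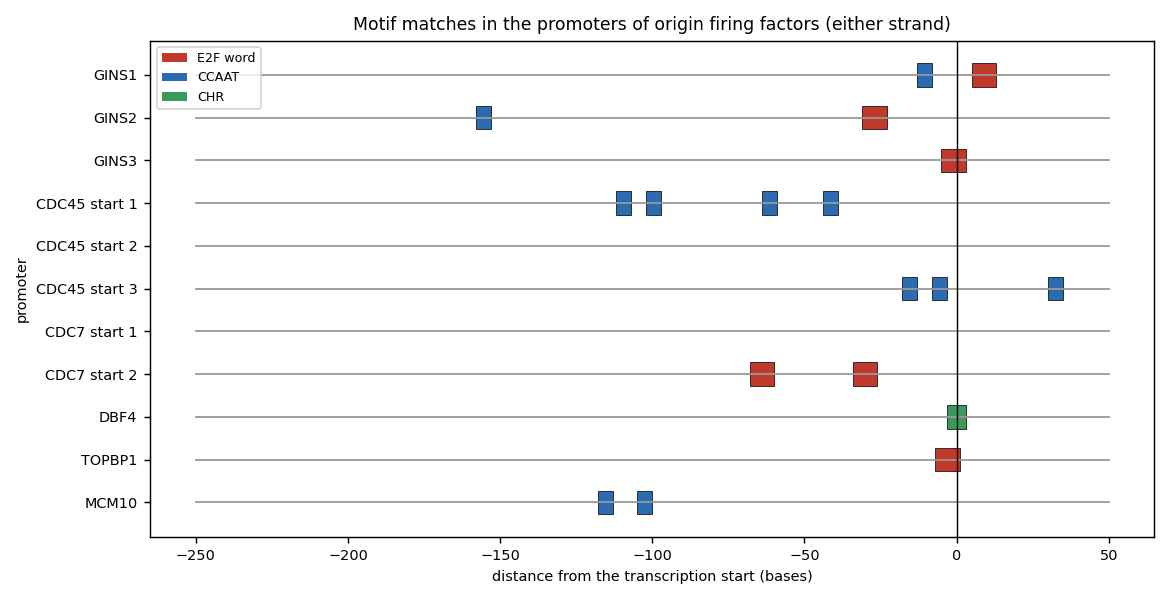
Each line is 1 promoter from 250 bases before to 50 bases after the transcription start (x axis, bases), with coloured blocks where an E2F word, CCAAT or TTTGAA (CHR) occurs on either strand. E2F words lie between -68 and 6 in 5 genes, and CCAAT is repeated in CDC45 and MCM10.

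The values are eRPKM, the number of exonic reads left after PCR duplicates were removed, divided by gene length and by library depth. Depth ran from 9647501 to 12678599 reads per library, and each member had 354 to 3377 reads in each library. Comparisons used limma on log2(eRPKM + 0.5), and a gene was called when its Benjamini-Hochberg adjusted p was below 0.05 and its log2 fold change past 0.5 in either direction. Where members are counted by a p-value alone, the share of all genes was not computed. RAD21 checked the labels: it stood at 66.4 to 96.9 eRPKM in the siCtrl and siCtrl OHT libraries, at 15.5 to 18.6 in siRAD21 libraries with or without OHT at 24 h and at 11.1 to 11.3 at 48 h. The mesenchymal genes VIM and SPARC were high (at least 104.7 and 60.6 eRPKM in every library), whereas COL1A2 was at most 0.109 eRPKM. The blood marker PTPRC, the T cell marker CD3E and the liver marker ALB were at most 0.322, 0.0817 and 0.0453 eRPKM. The other listed markers of other cell types were not as low: EPCAM at 2.56 to 12.9, CDH1 at 0.559 to 1.74 and PECAM1 at 0.303 to 0.767 eRPKM. The siRAD21 OHT libraries at 48 h differed by no more than the sampling noise of their reads (chi-square per gene 0.98, z = -1.53, over 11755 genes, against 1.07 to 4.47 for other pairs), so their mean is given as that of 1 sample, with no SD. The fits hold both of them, and averaging them changed no call of a member. The siRAD21 24 h libraries were the next most alike, at 1.07 (z = 5.3), and were counted as 2 samples. The methods speak of biological replicates for 2 samples of each group, and nothing in the labels says which libraries came from separate cultures, so p-values measure the spread between these libraries.

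The firing factors are spread over 8 chromosomes (GRCh37 positions, GENCODE). GINS1 lies at chr20:25371644-25433336, GINS2 at chr16:85709804-85723679 and GINS3 on the same chromosome at chr16:58328984-58440051. GINS4 (chr8:41386737-41402549) and RECQL4 (chr8:145736671-145743229) share chromosome 8 with RAD21. CDC45 is at chr22:19466980-19508135, CDC7 at chr1:91966408-91991321, DBF4 at chr7:87505531-87538868, TOPBP1 at chr3:133317019-133381224 and MCM10 at chr10:13203558-13253110. The values count exonic reads of mature and unspliced RNA alike. Of the annotated exon bases of GINS4, 23.4% are shared with GPAT4-AS1 or another unnamed gene, and of those of GINS3, 10.9%. The other members share at most 4.38%, and reads on shared bases were not separated.

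All 10 firing factors were well expressed and lowest in the same group. Over all libraries the mean level per length was highest for RECQL4 (62.9 eRPKM) and lowest for CDC7 (24.3 eRPKM), with the 4 GINS subunits between 34.6 and 44.9 eRPKM. In each of the 10 genes both siRAD21 48 h libraries lay below all 16 others, a pattern found in 16.9% of the 14993 genes tested. The order of the other groups differed between members. GINS1 was highest in the 3 groups siCtrl OHT 48 h, siCtrl OHT 24 h and siCtrl 24 h (means of 41.4 to 41.8 eRPKM, overlapping ranges), followed by siCtrl 48 h (38.6, overlapping siCtrl OHT 48 h). Below these, without overlap, lay siRAD21 OHT 24 h (34.4, overlapping siRAD21 24 h at 33.0), siRAD21 OHT 48 h (25.2) and siRAD21 48 h (15.0). GINS3, in contrast, was highest in siRAD21 OHT cells at 24 h (44.8 eRPKM), followed by siRAD21 OHT 48 h (42.6), which overlapped siRAD21 24 h (41.7). GINS4, CDC45, CDC7 and RECQL4 were also highest in siRAD21 OHT cells at 24 h, in each case with a range that overlapped the next group. GINS2, TOPBP1 and MCM10 were highest in siCtrl OHT cells at 48 h and DBF4 in siCtrl OHT cells at 24 h, again overlapping the next group.

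**Figure D2:**
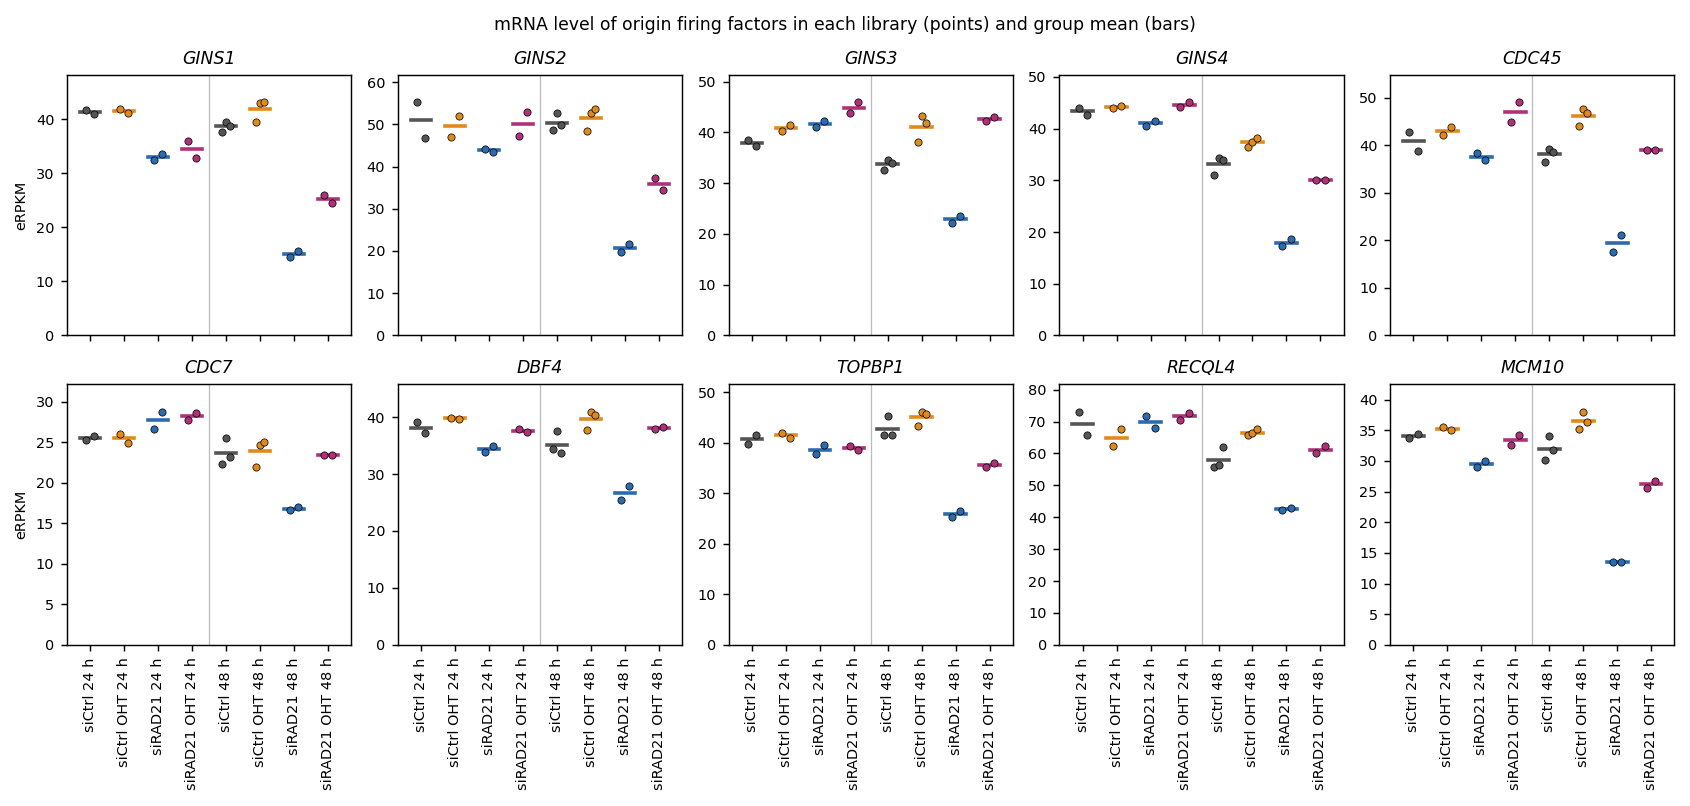
Each panel shows 1 gene, with eRPKM on the y axis (from 0), a point for every library and a bar at the mean of each of the 8 groups. The siRAD21 48 h libraries are below all others in every panel, and the siRAD21 OHT 48 h libraries lie above them.

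Silencing RAD21 for 48 h lowered the mRNAs of all 4 GINS subunits, of CDC45, TOPBP1 and MCM10. These are 7 of the 10 members, while 11.2% of all genes tested were called lower. The median log2 fold change was -0.79 for the members and -0.01 for all genes tested. In bulk RNA, fewer cells that express these genes and less RNA per cell cannot be told apart.

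Within GINS the subunits did not fall by the same amount. GINS1 read 37.7, 39.5 and 38.7 eRPKM in the siCtrl libraries and 14.4 and 15.6 in the siRAD21 libraries at 48 h. This took the mean from 38.6 ± 0.918 (SD, n = 3) to 15.0 ± 0.811 (n = 2), or 38.8% of control (log2 fold change -1.34, SE 0.052, adjusted p = 1.67e-10, Benjamini-Hochberg in limma). GINS2 had 48.5, 52.7 and 49.8 eRPKM in siCtrl and 19.8 and 21.7 in siRAD21 cells, 41.3% of control (-1.26, SE 0.076, adjusted p = 9.46e-09, Benjamini-Hochberg in limma). GINS1 and GINS2 thus had siRAD21 libraries far below the lowest control. GINS4 fell from 30.9, 34.4 and 33.8 eRPKM to 17.2 and 18.6, 54.1% of control (-0.87, SE 0.046, adjusted p = 2.87e-09, Benjamini-Hochberg in limma). GINS3 moved least of the subunits, from 32.6, 34.6 and 33.9 to 22.1 and 23.6 eRPKM, 67.8% of control (-0.55, SE 0.052, adjusted p = 6.61e-07, Benjamini-Hochberg in limma).

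CDC45, the factor that completes the helicase with GINS and MCM, had 36.6, 39.3 and 38.7 eRPKM in siCtrl and 17.6 and 21.2 in siRAD21 cells at 48 h. Its mean fell to 50.8% of control (log2 fold change -0.97, SE 0.070, adjusted p = 5.22e-08, Benjamini-Hochberg in limma), and its siRAD21 libraries were the least alike of any member (SD 2.58 eRPKM, n = 2). MCM10 fell more, from 30.2, 34.0 and 31.8 eRPKM to 13.6 and 13.5 (-1.21, SE 0.049, adjusted p = 2.20e-10, Benjamini-Hochberg in limma), and these siRAD21 libraries were nearly equal (SD 0.0648 eRPKM). TOPBP1 fell from 41.5, 45.3 and 41.6 to 25.4 and 26.6 eRPKM, 60.7% of control (-0.71, SE 0.046, adjusted p = 1.64e-08, Benjamini-Hochberg in limma).

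The remaining 3 members had lower values in siRAD21 cells at 48 h too, but did not pass the fold change threshold. CDC7, the kinase subunit of DDK, had 22.3, 25.6 and 23.2 eRPKM in siCtrl and 16.7 and 17.0 in siRAD21 cells (log2 fold change -0.48, 95% interval -0.61 to -0.34, adjusted p = 1.63e-05, Benjamini-Hochberg in limma). Its activator DBF4 had 34.3, 37.5 and 33.6 against 25.4 and 27.9 eRPKM (-0.39, interval -0.51 to -0.28, adjusted p = 2.40e-05, Benjamini-Hochberg in limma). For the helicase RECQL4 the values were 55.7, 56.4 and 62.1 against 42.3 and 42.9 eRPKM (-0.44, interval -0.56 to -0.32, adjusted p = 1.16e-05, Benjamini-Hochberg in limma). All 10 members had libraries that did not overlap between siCtrl and siRAD21 at 48 h, as did 36.7% of the genes tested in the lower direction. CDC7 passed the threshold without replicate 1 of siCtrl 48 h (-0.52), and CDC7 and RECQL4 both did when the removal of duplicate reads was undone by calculation (-0.50 and -0.51).

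At 24 h the firing factors differed little between siRAD21 and siCtrl cells. None of the 10 was called by limma, against 8.43% of all genes, with 5 at an unadjusted p under 0.05 and 0 called with voom on the recovered reads. GINS1 was the furthest from 0, at 41.7 and 41.0 eRPKM in siCtrl and 32.4 and 33.5 in siRAD21 cells, without overlap (log2 fold change -0.32, SE 0.057, adjusted p = 0.000776, Benjamini-Hochberg in limma). MCM10 had 33.7 and 34.4 against 29.1 and 29.9 eRPKM (-0.20, SE 0.053, adjusted p = 0.0116, Benjamini-Hochberg in limma). These were the 2 members with an adjusted p below 0.05 at this time. GINS3 had 38.6 and 37.4 in siCtrl and 41.1 and 42.3 eRPKM in siRAD21 cells, a difference in the upward direction that did not pass adjustment (0.13, SE 0.056, adjusted p = 0.104, Benjamini-Hochberg in limma). CDC7 (0.11) and RECQL4 (0.01) also had values above 0, and GINS2, GINS4, CDC45, DBF4 and TOPBP1 lay between -0.21 and -0.07.

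The effect of silencing on most firing factors was larger at 48 than at 24 h. Tested as a difference of log2 fold changes (48 h minus 24 h), 8 of the 10 members were called lower, against 6.86% of all genes. GINS2 (-1.05), GINS1 (-1.01) and MCM10 (-1.01) had the largest differences, each with an adjusted p of at most 3.12e-05 (Benjamini-Hochberg in limma). CDC45 (-0.85), GINS4 (-0.79), GINS3 (-0.68), TOPBP1 (-0.64) and CDC7 (-0.59) followed. RECQL4 at -0.45 (SE 0.082, adjusted p = 0.0014, Benjamini-Hochberg in limma) and DBF4 at -0.25 (SE 0.079, adjusted p = 0.039) were not past the fold threshold. RAD21 itself was lower at 48 h (12.1% of control) than at 24 h (26.0%), so time and the depth of the silencing move together. In siCtrl cells alone, 0 of 10 members differed between 48 and 24 h by the same thresholds, against 12.4% of all genes (limma, 4 members at an unadjusted p under 0.05, 0 called with voom). GINS4 came nearest, at 44.04 and 42.7 eRPKM at 24 h and 30.9 to 34.4 at 48 h (-0.39, SE 0.046, adjusted p = 2.13e-05, Benjamini-Hochberg in limma).

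OHT, which activates MycER, was followed by small shifts of the firing factors in control cells. No group lacked MycER, so effects of OHT itself and of MycER cannot be told apart here or below. At 24 h 0 of 10 were called by limma, against 8.78% of all genes, with 0 at an unadjusted p under 0.05 and 0 called with voom, and their log2 fold changes ran from -0.09 (RECQL4) to 0.10 (GINS3). At 48 h again 0 were called, against 17.9% of all genes, and 0 with voom. All 10 values were above 0, 7 had an unadjusted p under 0.05 and 6 an adjusted p below 0.05 in limma. The shares of all genes for these 3 counts were not computed, so the counts are not shown to be particular to the members. GINS3 had 32.6, 34.6 and 33.9 eRPKM without and 38.1, 43.3 and 41.8 with OHT, 122% of control on average (log2 fold change 0.28, SE 0.046, adjusted p = 0.000161, Benjamini-Hochberg in limma). CDC45 had 36.6, 39.3 and 38.7 without and 44.04, 47.7 and 46.9 with OHT (0.27, SE 0.062, adjusted p = 0.0022, Benjamini-Hochberg in limma). RECQL4 (0.20), MCM10 (0.19), GINS4 (0.17) and DBF4 (0.17) had smaller values with an adjusted p of at most 0.00787 (Benjamini-Hochberg in limma). In these 6 genes the OHT libraries lay above the controls without overlap, as in 27.3% of all genes tested. At the other end CDC7 had 22.3, 25.6 and 23.2 without and 21.98, 24.7 and 25.0 eRPKM with OHT, 0.01 with an interval from -0.11 to 0.13, and GINS2 had 0.03 with overlapping libraries.

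In RAD21-silenced cells OHT was followed by higher firing factor mRNAs at 48 h. Of the 10 members, 8 were called higher, against 12.4% of all genes, and all 10 had libraries above those of siRAD21 cells without overlap, as had 40.7% of all genes tested. The median log2 fold change of the members was 0.73. CDC45 went from 17.6 and 21.2 eRPKM in siRAD21 to 39.0 and 39.0 in siRAD21 OHT cells, with a log2 fold change of 1.00 (SE 0.077, adjusted p = 1.09e-07, Benjamini-Hochberg in limma). MCM10 rose from 13.6 and 13.5 to 25.7 and 26.7 eRPKM (0.93, SE 0.053, adjusted p = 8.10e-09, Benjamini-Hochberg in limma). Both genes thus stood far above the siRAD21 libraries, and CDC45 stood within the range of siCtrl cells.

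GINS3 rose from 22.1 and 23.6 to 42.2 and 43.0 eRPKM (0.88, SE 0.056, adjusted p = 2.05e-08, Benjamini-Hochberg in limma). GINS2 rose from 19.8 and 21.7 to 37.3 and 34.5 eRPKM (0.78, SE 0.084, adjusted p = 2.76e-06, Benjamini-Hochberg in limma). GINS4 reached 30.02 and 30.15 and GINS1 25.9 and 24.5 eRPKM, both with a log2 fold change of 0.73 (adjusted p at most 1.21e-07, Benjamini-Hochberg in limma). All 4 subunits therefore moved upward, and they ended at different distances from control. RECQL4 rose to 60.1 and 62.3 (0.52) and DBF4 to 37.9 and 38.3 eRPKM (0.51), both close to the threshold. CDC7 (23.4 and 23.5 eRPKM, 0.47, SE 0.069) and TOPBP1 (35.3 and 36.0 eRPKM, 0.45, SE 0.050) stayed under it, with adjusted p of 4.63e-05 and 3.62e-06 (Benjamini-Hochberg in limma). DBF4 was not called without replicate 1 of siRAD21 48 h (0.44), nor RECQL4 without replicate 2 of siRAD21 OHT 48 h (0.49), and neither with quantile normalization (0.37 and 0.35).

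At 24 h OHT in siRAD21 cells gave 0 called members by limma, against 11.9% of all genes, with 5 at an unadjusted p under 0.05 and 0 called with voom. CDC45 was the furthest from 0, at 38.3 and 36.97 eRPKM without and 45.0 and 49.0 with OHT (0.32, SE 0.077, adjusted p = 0.00561, Benjamini-Hochberg in limma). MCM10 followed with 29.1 and 29.9 against 32.6 and 34.2 eRPKM (0.17, SE 0.053, adjusted p = 0.0209, Benjamini-Hochberg in limma). Markers that are unrelated to replication moved with OHT as well. The summed level of 6 markers of other cell types (EPCAM, CDH1, PTPRC, CD3E, PECAM1 and ALB) was 4.44 to 6.79 eRPKM in libraries without OHT and 8.31 to 15.0 with OHT, most of it EPCAM. The summed level of 5 mesenchymal and osteoblast markers (VIM, COL1A1, COL1A2, SPARC and RUNX2) was 217 to 275 without and 196 to 229 with OHT, most of it VIM and SPARC. At 48 h COL1A1 and RUNX2 were called lower with OHT in siCtrl cells (-0.91 and -0.84) and in siRAD21 cells (-1.84 and -1.33). VIM and SPARC were called in neither. The part of these markers in the results on OHT was not tested.

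**Figure D3:**
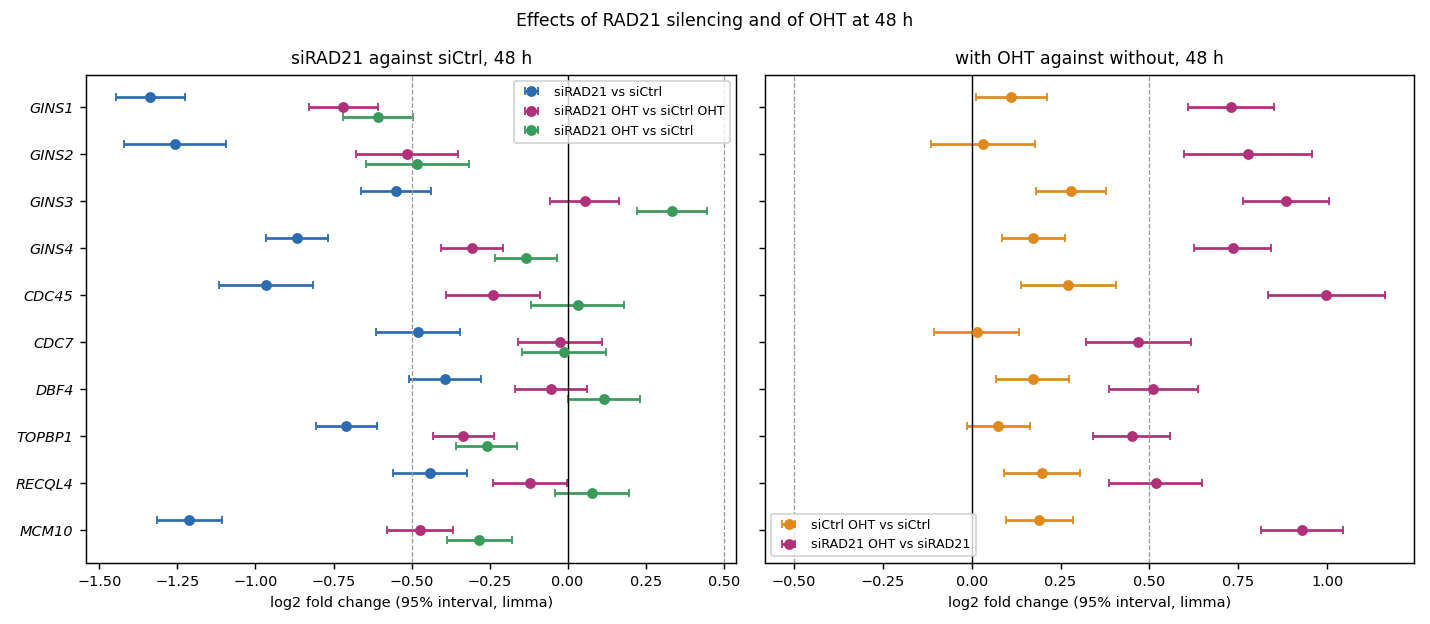
Points are log2 fold changes at 48 h with 95% intervals from limma (x axis) for each gene (y axis), for the effect of siRAD21 on the left and of OHT on the right, and dashed lines mark -0.5 and 0.5. The effect of siRAD21 is nearer to 0 with OHT than without for every gene, and the effect of OHT is larger in siRAD21 than in siCtrl cells.

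Whether OHT acted differently in silenced and control cells was tested as an interaction, the log2 fold change with OHT in siRAD21 cells minus that in siCtrl cells. At 48 h 6 of the 10 members were called higher, against 3.33% of all genes, and these were the 4 GINS subunits, CDC45 and MCM10. GINS2 (0.74, SE 0.108), MCM10 (0.74, SE 0.069) and CDC45 (0.73, SE 0.099) had the largest values, with adjusted p of 0.000446, 1.90e-05 and 0.000286 (Benjamini-Hochberg in limma). GINS1 (0.62), GINS3 (0.60) and GINS4 (0.56) had adjusted p of 0.000105, 0.00012 and 9.67e-05 (Benjamini-Hochberg in limma). The kinase pair and the loading factors had smaller values: CDC7 had 0.46, TOPBP1 0.37, DBF4 0.34 and RECQL4 0.32, all with an adjusted p of at most 0.0127 and none past the fold threshold. At 24 h 0 members were called by limma, against 0% of all genes, with 1 (CDC45) at an unadjusted p under 0.05 and 0 called with voom. This comparison shares its siRAD21 and siCtrl libraries with those above.

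With OHT present in both arms, the difference between siRAD21 and siCtrl cells at 48 h was smaller and uneven. Only GINS1 and GINS2 were called lower, 2 of 10 members, against 7.74% of all genes. GINS1 had 39.4, 42.9 and 43.1 eRPKM in siCtrl OHT and 25.9 and 24.5 in siRAD21 OHT cells (-0.72, SE 0.052, adjusted p = 9.67e-08, Benjamini-Hochberg in limma). GINS2 had 48.5, 52.6 and 53.5 against 37.3 and 34.5 eRPKM (-0.51, SE 0.076, adjusted p = 8.36e-05, Benjamini-Hochberg in limma). The call on GINS2 sits at the threshold: it was lost without replicate 2 (-0.50) or 3 (-0.49) of siCtrl OHT 48 h, without replicate 2 of siRAD21 OHT 48 h (-0.46) and with quantile normalization (-0.46). MCM10 (-0.47), TOPBP1 (-0.33), GINS4 (-0.31) and CDC45 (-0.24) had an adjusted p of at most 0.012 (Benjamini-Hochberg in limma) without passing the fold threshold. MCM10 passed it without replicate 2 of siRAD21 OHT 48 h (-0.50) and with duplicate removal undone (-0.52). RECQL4 (-0.12), DBF4 (-0.05), CDC7 (-0.02) and GINS3 (0.05) were nearest to 0, and for CDC7 and GINS3 the 95% intervals ran from -0.16 to 0.11 and from -0.06 to 0.17. At 24 h 0 members were called by limma, against 6.47% of all genes, with 3 at an unadjusted p under 0.05 and 0 called with voom, and GINS1 had the lowest value (-0.27, SE 0.057, adjusted p = 0.00387, Benjamini-Hochberg in limma).

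Set against untreated controls, cells with both treatments had 1 firing factor past both the fold and the adjusted p threshold at 48 h. By an adjusted p below 0.05 in limma alone there were 6, a count whose share of all genes was not computed, so it is not shown to be particular to the members. GINS1 was called lower, which is 1 of 10 members against 14.9% of all genes, a share near that background, and stood at 65.2% of siCtrl (-0.61, SE 0.052, adjusted p = 1.79e-07, Benjamini-Hochberg in limma). GINS2 stood at 71.4% (-0.48, SE 0.076, adjusted p = 8.30e-05, Benjamini-Hochberg in limma) and passed the fold threshold without replicate 1 of siCtrl 48 h (-0.51), without replicate 1 of siRAD21 OHT 48 h (-0.54), with quantile normalization (-0.52) and with duplicate removal undone (-0.55). MCM10 was at 81.9%, TOPBP1 at 83.3% and GINS4 at 91.0% of siCtrl. CDC7 (99.1%), CDC45 (102%), RECQL4 (105%) and DBF4 (108%) lay around it. GINS3 was above control, at 42.2 and 43.0 eRPKM against 32.6 to 34.6, or 126% (0.33, SE 0.052, adjusted p = 6.47e-05, Benjamini-Hochberg in limma). At 24 h 0 members were called by limma, against 13.1% of all genes, with 3 at an unadjusted p under 0.05 and 0 called with voom. GINS1 (-0.26) and GINS3 (0.24) were then furthest apart, with adjusted p of 0.00233 and 0.00494 (Benjamini-Hochberg in limma).

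Because GINS works as an assembly of 4 subunits, the ratios between their mRNAs were compared as well, all 6 pairs, together with that of the DDK subunits. Ratios were taken within each library, and the 7 siRAD21 samples (with or without OHT, both times, the siRAD21 OHT 48 h libraries as 1) were set against the 10 siCtrl samples with an exact two-sided permutation test of the mean log2 ratio that does not separate times or OHT, adjusted over the 7 pairs. GINS3/GINS1 was 0.865 to 1.01 in the siCtrl libraries and 1.22 to 1.76 in the siRAD21 libraries, with no overlap. Its mean log2 was 0.49 ± 0.177 (SD, n = 7) against -0.10 ± 0.083 (n = 10), a difference of 0.58 (exact permutation p = 0.000103, the smallest these samples allow, adjusted 0.00024). Within each time and OHT state the ratio was again higher in siRAD21 cells: 1.26 to 1.27 against 0.912 to 0.925 at 24 h, 1.22 to 1.396 against 0.961 to 1.00 with OHT at 24 h, 1.52 to 1.53 against 0.865 to 0.877 at 48 h, and 1.63 to 1.76 against 0.966 to 1.01 with OHT at 48 h. The shift in this ratio was thus present at 24 h. No member was called then, but a call needs a log2 fold change past 0.5, and the ratio test has no such threshold. At 24 h without OHT the ratio combines the lower GINS1 (-0.32) with the higher GINS3 (0.13) of siRAD21 cells.

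GINS3/GINS2 and GINS4/GINS1 were also higher in siRAD21 samples, by 0.42 and 0.39 on the log2 scale (exact permutation p = 0.000103 for each, adjusted 0.00024), and GINS2/GINS1 by 0.16 (adjusted exact permutation p = 0.00144). At 24 h without OHT the GINS2/GINS1 ranges overlapped, at 1.30 to 1.36 in siRAD21 and 1.14 to 1.32 in siCtrl cells. GINS4/GINS2 differed by 0.23 (adjusted exact permutation p = 0.0173), but with OHT at 24 h its siRAD21 values, 0.851 to 0.934, overlapped those of siCtrl, 0.854 to 0.936. GINS3/GINS4 (0.19, adjusted exact permutation p = 0.0505) did not pass when times and OHT states were pooled, but siRAD21 cells were higher without overlap in each of the 4 states: 1.01 to 1.02 against 0.876 to 0.877 at 24 h, 0.990 to 1.02 against 0.914 to 0.933 with OHT at 24 h, 1.27 to 1.28 against 1.00 to 1.05 at 48 h, and 1.41 to 1.43 against 1.05 to 1.16 with OHT at 48 h. Permuted only within each state, which gives 1440 arrangements, it differed by 0.26 (exact permutation p = 0.000694, the smallest these allow, adjusted 0.00122). The pooled test of this ratio passed with duplicate removal undone (adjusted 0.0445) and without replicate 2 or 3 of siCtrl OHT 48 h or any 1 siRAD21 library of 24 h, with or without OHT (adjusted exact permutation p of 0.0306 to 0.042). Within states the 5 other GINS pairs had an adjusted exact permutation p of at most 0.00567. The GINS ratios share mRNAs and libraries with each other and with the folds of single genes above, so they are no independent support. The ratio tests were added after seeing the data. How often ratios of other gene pairs pass was not computed, so these results are not shown to be particular to GINS. Single genes often separated: in siRAD21 against siCtrl cells at 48 h, 36.7% of genes tested lay below and 33.4% above without overlap. DBF4/CDC7 (-0.14, adjusted exact permutation p = 0.054) passed in neither test, at 0.0542 within states. It passed with duplicate removal undone (adjusted 0.0443) and without replicate 2 of siRAD21 48 h (adjusted exact permutation p = 0.0189). The ratio was lower in siRAD21 cells at 24 h, 1.22 to 1.27 against 1.44 to 1.54, and not at 48 h, 1.52 to 1.65 against 1.45 to 1.54. Duplicate removal caps eRPKM at a ceiling set by the depth, and since the highest value of a member was at 18.1% (CDC7) to 44.3% (RECQL4) of that ceiling, folds and ratios are slightly compressed.

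The genes that act just before and after the firing factors were followed as 2 lists. Of 16 licensing genes (ORC and MCM subunits, CDC6, CDT1, GMNN and MCMBP), 9 were called lower in siRAD21 cells at 48 h, against 11.2% of all genes, with a list median of -0.61 on the log2 scale. The largest falls were in ORC1 (-1.11), the regulated subunit of the origin recognition complex, and in the helicase subunits MCM4 (-0.85) and MCM6 (-0.84). OHT in siRAD21 cells at 48 h gave 9 of 16 called higher (12.4% of all genes), led by MCM6 (1.18), ORC1 (0.90) and the loader CDT1 (0.81). The interaction at 48 h called 4 higher (3.33% of all genes), among them MCM6 (0.86), ORC1 (0.75) and MCM2 (0.61). The effect of silencing was lower at 48 than at 24 h for 9 (6.86% of all genes). In the other 10 comparisons 0 of 16 were called, against 0% to 28% of all genes.

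Of 25 firing partners and fork factors (cyclins, CDC25A, TICRR, MTBP, DONSON, checkpoint adaptors, RFC, RPA and other fork genes), 16 were called lower in siRAD21 cells at 48 h, with a median of -0.65. Cyclin E2 (CCNE2, -1.14), the checkpoint adaptor CLSPN (-0.97) and the clamp loader subunit RFC5 (-0.96) had the largest falls. With OHT in siRAD21 cells at 48 h 9 were called higher (12.4% of all genes). They were led by TIPIN (1.39), a fork protection factor, the phosphatase CDC25A (1.16) and cyclin E1 (CCNE1, 0.89). The interaction at 48 h called 11 higher (3.33% of all genes), among them CCNE2 (0.77), TIPIN (0.74) and CDC25A (0.71). The difference of the silencing effect between the times called 16 lower (6.86% of all genes). TIPIN was also the 1 gene of 25 called higher with OHT in siCtrl cells at 48 h (0.65, against 7.78% of all genes). The same held in siRAD21 cells at 24 h (0.57, against 4.29%), and neither share was above that of all genes. Against siCtrl, siRAD21 OHT cells at 48 h had CCNE2 (-0.70), CLSPN (-0.66) and DBF4B (-0.61), a second DDK activator, called lower and TIPIN (0.54) higher. These are 3 and 1 of 25, against 14.9% and 13.1% of all genes, so neither share was above that background. DBF4B was the 1 gene of 25 called lower at 48 than at 24 h in siCtrl cells (-0.54, against 6.91% of all genes). In the remaining 6 comparisons 0 of 25 were called, against 0% to 16.2% of all genes. In siRAD21 against siCtrl cells at 48 h the share of the list called lower, like that of the members, was above the 11.2% of all genes.

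Over the 8 group means, the firing factors varied in similar ways. Each member's Pearson correlation with the mean standardised pattern of the 10 was between 0.913 (GINS3) and 0.988 (MCM10). That pattern includes the member itself, and all 10 were lowest in siRAD21 cells at 48 h, so high values were likely from the start. The share of other genes that reach such values was not computed. Between pairs of members it was lowest for GINS1 with GINS3 (0.721), GINS3 with TOPBP1 (0.756) and CDC7 with TOPBP1 (0.775), and highest for GINS2 with MCM10 (0.989). Among 10896 other genes with a mean of at least 5 eRPKM, the most alike were ORC1 (0.995), LRR1 (0.993), SUV39H1 (0.993), DNMT1 (0.992) and DNAJC9 (0.991). Of these 5, ORC1 and LRR1 were called lower with siRAD21 at 48 h (-1.11 and -0.81), higher with OHT in siRAD21 cells (0.90 and 0.68) and higher in the interaction (0.75 and 0.51), all at 48 h. SUV39H1 was called in the first pair of these (-0.78 and 0.68) and not in the interaction (0.40), and DNMT1 only with siRAD21 (-0.52, with 0.46 and 0.29 in the others). DNAJC9 was called in none of them (-0.47, 0.38 and 0.34). These correlations describe 8 points that share libraries and, in part, controls. Since the 5 genes were picked for this likeness, the direction of their changes follows from the choice and is no separate result.

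**Figure D4:**
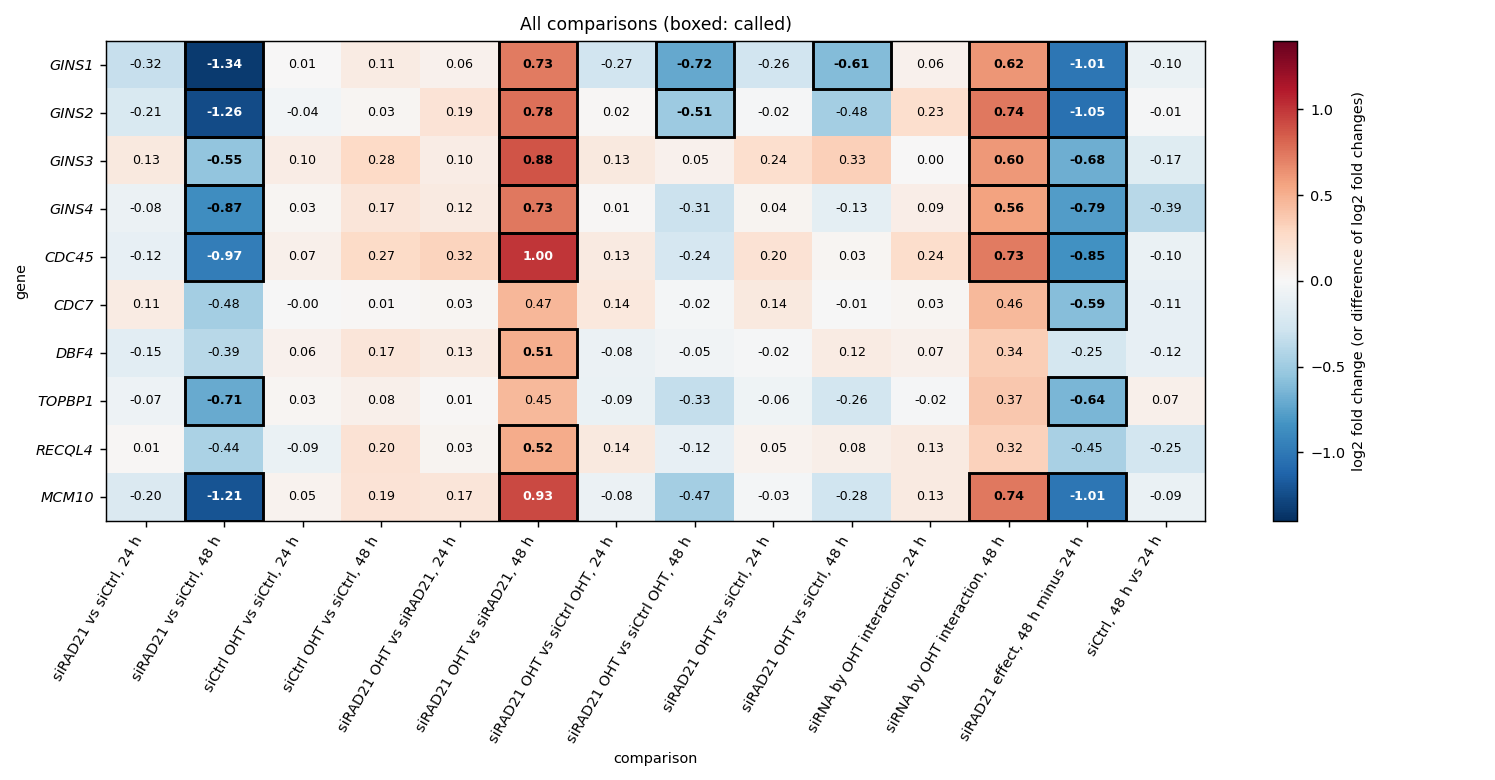
Colours and numbers give log2 fold changes, or differences of log2 fold changes, for each gene (rows) in each of the 14 comparisons (columns), with a box around called values. The boxes lie in 6 of the comparisons, all at 48 h or between 48 and 24 h, and 7, 8, 2, 1, 6 and 8 members are boxed in them from left to right.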

How the data were processed

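RNA of 18 libraries was depleted of ribosomal RNA and prepared with TruSeq v2, a kit that does not mark strand, and sequenced with the Illumina HiSeq platform. The authors trimmed or masked bases of low quality, aligned reads to hg19 with TopHat2 (2.0.8 in the submitters' processing notes, which also name featureCounts 1.4.5), removed PCR duplicates and deposited eRPKM (RPKM over exons) for 23399 genes. Their DEGs came from DESeq2, and binding data were not analysed here.

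All libraries were grouped by their titles. The 10 members and the gene lists were chosen with earlier results of these data known. RPKM values are not counts, so log2(eRPKM + 0.5) was fitted with limma 3.58.1 (R 4.3.3) on all 18 libraries in 1 model with a mean for each of 8 groups and a variance trend. Genes with a mean of at least 1 eRPKM (14993) were tested, p-values were adjusted by Benjamini-Hochberg over all of them in each of 14 comparisons, and a call needed both an adjusted p under 0.05 and a fold change past 0.5 on the log2 scale. Named genes were the members, RAD21, at most 3 called genes of each list per comparison and direction, and the 5 genes most alike in pattern; marker genes were set by list. The reads behind the values were worked out from their steps: 22040 genes gave whole reads (tolerance 0.02) and 1359 were listed at 0 in every library. The single-exon genes that set the depth numbered 792 in the first library. These reads were used for voom (in limma, with TMM factors computed from these reads) and for the comparison of replicates, over genes with at least 40 reads in a pair and a mean under 30 eRPKM.

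Replicate numbers paired the siCtrl and siCtrl OHT libraries at 48 h, where same-numbered libraries deviated together (r = 0.258, 0.130 and 0.157), and no other groups with 3 pairs exist. Alternatives were pseudocounts of 0.1 and 1, no filter on low genes or a filter at a mean of 5 eRPKM, median centring, quantile normalization, only the groups compared, a replicate block, the siRAD21 OHT 48 h libraries averaged, voom and leaving out each library. Undoing duplicate removal, a block with crossed siCtrl 24 h numbers and the ratios between partner mRNAs, pooled or permuted within each state, were added after seeing the data. The procedure was tested on simulated reads. Promoters came from the RefSeq table of GRCh38.p14 and positions from GENCODE on GRCh37. Python 3.11.15, pandas 2.3.3, scipy 1.17.1 and matplotlib 3.10.9 were used for tables, permutation tests and figures.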

Additional observations from a re-analysis of the deposited data

Results flagged for a closer look

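Effects of OHT that differed between siRAD21 and siCtrl cells at 48 h, and effects of siRAD21 that differed between 48 and 24 h, are listed here because the difference itself passed the thresholds in limma with Benjamini-Hochberg adjustment. The interaction was 0.74 for GINS2, 0.74 for MCM10, 0.73 for CDC45, 0.62 for GINS1, 0.60 for GINS3 and 0.56 for GINS4 on the log2 scale. In each the effect of OHT, not the level with OHT, was what the test found higher in siRAD21 than in siCtrl cells. The siRAD21 effect at 48 h minus that at 24 h was -1.05 for GINS2, -1.01 for GINS1, -1.01 for MCM10, -0.85 for CDC45, -0.79 for GINS4, -0.68 for GINS3, -0.64 for TOPBP1 and -0.59 for CDC7. RAD21 was also lower at 48 h than at 24 h in siRAD21 cells (11.2 against 18.4 eRPKM), and its part in the difference between the times was not tested.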

How the results depend on the processing

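Of 2450 recomputed log2 fold changes of members (10 genes, 14 comparisons), 2431 kept their direction where called and their side of the thresholds, 8 lost a call, 11 gained one and 0 called values changed sign. Every change of a call was at 48 h or between the times, and those of single genes stand beside the results. The number of members called moved as follows. For siRAD21 OHT against siCtrl OHT at 48 h it went from 2 to 1 with quantile normalization, and leaving out 1 library gave 1 to 2. For siRAD21 OHT against siCtrl at 48 h it went from 1 to 2 with quantile normalization and to 2 with duplicate removal undone, and leaving out 1 library gave 1 to 2. RECQL4 in the siRAD21 effect at 48 minus 24 h was called with duplicate removal undone (-0.55) and without replicate 1 of siCtrl 24 h (-0.53).

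The fit with a replicate block, which the pairing of siCtrl and siCtrl OHT at 48 h calls for, changed no call of a member: 7, 8, 2, 1, 6 and 8 members were called in the comparisons with calls, as without it. It moved the number of all genes called by at most 1.5 times, except for the interaction at 24 h, which went from 0 to 4. With the numbers of the siCtrl 24 h libraries crossed, since their deviations correlated with those of siCtrl OHT and siRAD21 OHT at -0.134 and -0.169, 1328 genes were called with OHT in siCtrl cells at 24 h (1316 without a block), 1995 in siRAD21 OHT against siCtrl at 24 h (1969) and 10 in the interaction at 24 h.

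Testing only the 10906 genes with a mean of at least 5 eRPKM lowered counts over all genes because fewer were tested: for siRAD21 against siCtrl from 1264 to 740 at 24 h and from 3559 to 2289 at 48 h, for OHT in siCtrl cells from 1316 to 742 and from 2684 to 1653, for OHT in siRAD21 cells from 1785 to 1024 and from 4281 to 2794, for siRAD21 OHT against siCtrl OHT from 970 to 610 and from 2431 to 1507, for siRAD21 OHT against siCtrl from 1969 to 1186 and from 4203 to 2769, for the interaction at 48 h from 1094 to 720 and for siCtrl over time from 1865 to 1152. The interaction at 24 h called 5 genes with all genes above 0 tested, 12 with quantile normalization and 18 with voom. Among all genes called, the share called higher moved by over 10 percentage points with another scaling in 3 comparisons, in which no member was called: siRAD21 against siCtrl at 24 h (69.1%, and 55.5% with quantile normalization), OHT in siRAD21 cells at 24 h (36.0%, and 48.6%) and siCtrl over time (44.5%, and 63.4% with median centring). Groups of 2 libraries limit all of these tests.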
